A study of Mus musculus with 48 samples.

Results

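The liver transcripts that differed between zeitgeber time ZT12 and ZT0 were described in mice that had received faecal transplants from donors on normal chow (NC). In this notation lights go on at ZT0 and off at ZT12, with 12 hr of light and 12 hr of darkness. The samples were chosen by their titles alone: 4 arrays of liver from NC recipients at ZT0 and 4 at ZT12, 8 of the 48 arrays of the series. The series compared liver and gut of normally fed recipients of transplants from chow, high-fat (HF) and ketogenic (KD) donors at both times, with 4 arrays in each of 12 groups. Per the labels the mice were age-matched male C57BL/6J with free access to food and water, and no age is given. All groups received a transplant, so no group shows the liver without one, and the labels do not tie germ-free or antibiotic-treated animals to single samples. Each title carries a mouse code, but nothing else says that the arrays are separate animals. The p-values therefore measure a spread between arrays, pooled within the 6 groups of all 24 liver arrays. The arrays are named here by time and the number in the code: replicates 1, 4, 5 and 6 at ZT0 and 7, 8, 11 and 13 at ZT12, and values are always given in that order.

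The circadian clock of mammalian cells is a transcriptional loop. BMAL1 pairs with CLOCK or NPAS2 and binds E-boxes to activate the period, cryptochrome and REV-ERB genes, whose proteins feed back on the activators, and the PAR bZIP factors DBP, TEF and HLF, which bind D-boxes and oppose NFIL3. REV-ERB and ROR proteins compete at a further element that controls the BMAL1 gene. In mouse liver this loop runs together with cues from feeding, which takes place mainly in the dark, and times the synthesis of bile acids, haem, lipids and secreted proteins.

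The 8 arrays were alike in brightness and separated by time. Their median intensity, a linear measure of spot brightness as deposited, lay between 88.2 and 97.7 units. Of the variance among the 8 arrays, 46.2% lay along a first component on which the ZT0 arrays scored from -20.56 to -10.28 and the ZT12 arrays from 14.79 to 18.55. The second component (16.2%) set ZT0 replicate 1 apart, at 23.44 against -11.20 to 4.23 in the others. The hepatocyte markers Alb, Apoa1, Apob, Ttr and Cps1 were bright in every array, and the 10 markers summed to between 98155 and 103863 units at ZT0 and between 96782 and 101666 at ZT12.

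Some ZT0 arrays stood apart. ZT0 replicates 5 and 6 were high in transcripts typical of intestine, named after their values were seen. Reg3b, an antimicrobial lectin of the gut, measured 50.3, 58.1, 3866 and 1792 at ZT0 and 39.1, 41.8, 46.8 and 56.3 at ZT12. Sis, which encodes the sucrase of enterocytes, measured 18.4, 28.8, 258 and 108 at ZT0 and 18.3, 16.5, 22.1 and 28.6 at ZT12. The Paneth cell defensin transcript Defa-ps1 measured 77.1, 98.1, 7208 and 3178 at ZT0 and 78.7, 76.1, 83.8 and 86.3 at ZT12. In all 3 the high values were those of ZT0 replicates 5 and 6, and the other 6 arrays lay far lower; defensin genes are near-identical, so their probes may share signal. The 8 enterocyte markers summed to between 1270.0 and 2010.0 units at ZT0, with the highest sum in replicate 5 and the next, 1627, in replicate 6, and to between 1067 and 1419.6 at ZT12. ZT0 replicate 1 had the highest Fgf21, a fasting hormone of liver also named after its values were seen, at 849 units against 184 to 231 in the other ZT0 arrays. Counts of called list members below are therefore also given without ZT0 replicates 5 and 6 where that moved them by over 1.5 times, and the part of these transcripts in any other result was not tested.

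**Figure D1:**
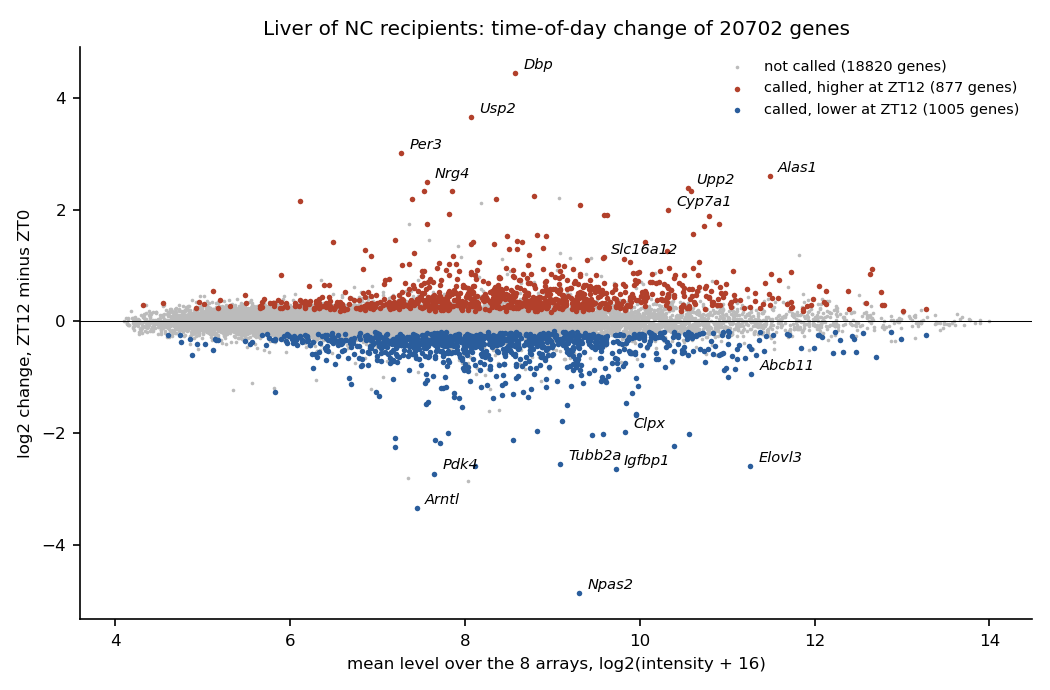
Each point is a gene, with its mean level over the 8 arrays on the horizontal axis, log2(intensity + 16), and its log2 change from ZT0 to ZT12 on the vertical axis. Coloured points are the 877 genes higher and the 1005 genes lower at ZT12 that passed the threshold; the changes run from -4.86 for Npas2 to 4.45 for Dbp.

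Of 20702 genes tested, 1882 (9.09%) differed between the times at a Benjamini-Hochberg adjusted p under 0.05 in limma. At ZT12 877 (4.24%) were higher and 1005 (4.85%) lower. With each array centred on its median in place of the quantile step, 527 were higher and 948 lower, so the balance of the directions depended on the scaling. Most of these changes were small. The median log2 change was 0.38 among the higher genes and -0.38 among the lower ones, against 0.00374 over all genes, and 93.6% of the called genes changed by less than 2-fold. At least 2-fold changes were found in 121 genes, 57 higher and 64 lower, and at least 4-fold changes in 14 higher and 17 lower. The arrays of the 2 times did not overlap for 1700 of the 1882 genes, against 3322 (16%) of all genes. The share called rose with brightness, from 1.16% among the dimmest 2071 genes to 20.4% among the brightest 2071, while the median SD among replicates fell from 0.144 to 0.094 log2 units. Counts of list members below are to be read beside the 4.24% higher and 4.85% lower of all genes. These shares were not matched for brightness, and among the brightest 2071 genes 217 were higher and 205 lower.

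The number of small changes called rested on single arrays, whereas the number of large ones did so less. Leaving out each array in turn gave between 1255 and 2116 genes, with the lowest count without ZT0 replicate 4, and between 112 and 141 genes of at least 2-fold. Higher genes numbered 574 without ZT0 replicate 4, and lower genes 668 without ZT12 replicate 11. Of the 1882 genes, 994 stayed called under all 8 omissions, and of the 121 large ones 110. Without ZT0 replicates 5 and 6 together, 1051 genes passed, 551 higher and 500 lower. Of the 1882 genes 950 were called again without that pair, of the 121 large ones 107, and none changed direction. Among the genes named below, the pair's omission also ended the calls of Ahsa1, Alad, Cry2, Cyp2j5, Esrra, Fga, Fgb, Fgf1, Gstt2, Hsp90aa1, Nop2 and Sec61g, which no single omission did.

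Of 6 activator genes of the clock loop 4 fell and 1 rose, and 0 rose without ZT0 replicates 5 and 6. The 1 that rose, by 0.70 on the log2 scale, is not among those named below. Npas2 (transcript cluster 10345675), which encodes the partner of BMAL1 in place of CLOCK, measured 3126, 4557, 3258 and 2904 at ZT0 and 108, 61.5, 82.8 and 184 at ZT12. The ZT0 and ZT12 arrays were far apart, a 29.1-fold difference on the scale of log2(intensity + 16) and the largest fall of all genes (adjusted p = 5.2e-12). Arntl (cluster 10556463), the BMAL1 gene, measured 498, 591, 548 and 530.1 at ZT0 and 41.4, 22.8, 45.1 and 49.8 at ZT12. The ZT12 values of Arntl were near the dim end of the array, and the groups were 10.2-fold apart (adjusted p = 1e-11). Clock itself measured 921, 945, 849 and 1029.9 at ZT0 and 438, 415, 440.4 and 422 at ZT12, with little spread inside either group (log2 change -1.10 ± 0.07, adjusted p = 3.4e-10). The ROR receptors activate the BMAL1 gene, and not all of them are given here. Rora fell (-0.36 ± 0.10, adjusted p = 0.027) and Rorb, dim at 38.1 to 46.5 units at ZT0, was at 0.04 ± 0.08. The Rora call was lost without each of ZT0 replicates 1, 4 and 5 and ZT12 replicates 7, 8 and 11.

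Of 10 repressor genes 8 rose and 1 fell. Per3 (cluster 10518781) measured 32.6, 41.4, 38.1 and 41.0 at ZT0 and 422, 418, 448 and 398 at ZT12, 2 tight and separate groups 8.07-fold apart (adjusted p = 1.3e-15). Per1 (cluster 10377439) measured 45.5, 54.0, 88.0 and 229 at ZT0 and 507, 444, 493 and 563 at ZT12. Its ZT0 arrays were spread widely, with replicate 6 the highest, and still lay below all ZT12 arrays (2.33 ± 0.40, adjusted p = 0.00041). Per2 rose by 1.39 ± 0.18, and its ZT12 arrays ranged from 431 to 559 units. The 2 cryptochromes split: Cry2 rose (0.49 ± 0.10, adjusted p = 0.0024) and Cry1 measured 256, 258, 195 and 189 at ZT0 and 116, 147, 141 and 144 at ZT12, lower in every ZT12 array (-0.64 ± 0.12, adjusted p = 0.00095).

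Ciart, a repressor that binds the BMAL1 complex, rose by 2.19 ± 0.17, from 41.4 to 83.2 units to 286 to 397. Bhlhe40 and Bhlhe41, which compete for E-boxes, rose by 1.26 ± 0.25 and 1.45 ± 0.28; at ZT12 Bhlhe41 ranged from 138 to 524 units, with replicate 7 far above the others. The REV-ERB genes differed in what the 2 times showed. Nr1d2 (REV-ERBβ) rose by 1.54 ± 0.20 with no overlap. Nr1d1 (REV-ERBα) measured 939, 643, 716 and 1016 at ZT0 and 1412, 895, 744 and 1237 at ZT12, groups that overlapped (0.35 ± 0.27, adjusted p = 0.49), and its 95% confidence interval reached from -0.21 to 0.90.

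Among output genes 9 of 11 rose and 1 fell. Dbp (cluster 10553092) measured 60.0, 87.8, 48.6 and 71.8 at ZT0 and 1999, 1725, 1744 and 1618 at ZT12, the largest rise of all genes at 21.8-fold (adjusted p = 4.9e-17). Tef measured 164, 109, 115 and 167 at ZT0 and 663, 659, 711 and 705 at ZT12 and Hlf 435, 346, 353 and 402 at ZT0 and 786, 814, 838 and 689 at ZT12, so all 3 PAR bZIP genes rose without overlap, Tef by 2.20 ± 0.11 and Hlf by 1.0 ± 0.11. Their opponent Nfil3 measured 386, 433, 427 and 370.0 at ZT0 and 81.3, 70.4, 69.4 and 105 at ZT12 and fell by 2.12 ± 0.16 on the log2 scale (adjusted p = 1.7e-09). Usp2, a deubiquitinase, rose 12.6-fold from 54.2 to 66.7 to 832 to 1009 units. Wee1, a kinase that delays entry into mitosis, rose by 2.34 ± 0.17, and Tsku, a secreted liver proteoglycan, by 2.24 ± 0.17. Noct, the phosphatase nocturnin, rose by 1.74 ± 0.30, and Gys2, the liver glycogen synthase, by 0.91 ± 0.09. Klf10, a glucose-responsive repressor, was at 1.11 ± 0.43 with overlapping arrays (adjusted p = 0.11).

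The kinases and ubiquitin ligases that modify clock proteins mostly did not pass. Of 11 members 0 rose and 1 fell in limma, and 3 had an unadjusted p under 0.05. The call that fell was lost without ZT12 replicate 8 and without ZT0 replicates 5 and 6, and 1 member rose without ZT0 replicate 6. Csnk1d, Csnk1e and Gsk3b were at -0.12 ± 0.07, -0.11 ± 0.06 and -0.00 ± 0.06. Of the 27 genes in the lists of activators, repressors and outputs 24 were called, between 23 and 24 with any 1 array left out and 21 without ZT0 replicates 5 and 6.

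**Figure D2:**
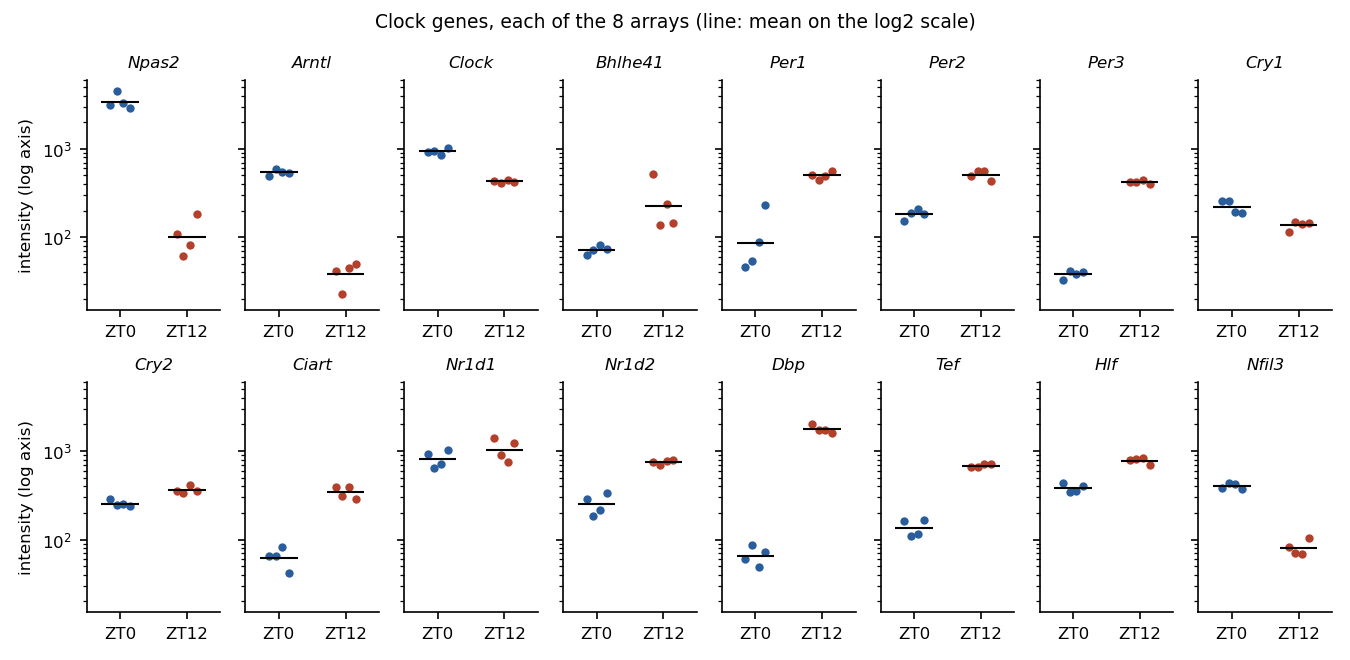
Each panel is a clock gene and each point an array, with intensity on a log axis, ZT0 on the left and ZT12 on the right; the line is the mean on the log2 scale. Apart from Nr1d1 the groups do not overlap in any panel, and Npas2, Arntl, Clock, Cry1 and Nfil3 are the panels in which ZT12 is the lower.

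The promoters of these genes show the elements named above in places, and are printed to show where. RefSeq promoters of build GRCm38.p6, 250 bases before to 50 after a transcript start, were found for 15877 of the tested genes and searched on both strands for the E-box CACGTG, the D-box TTATGTAA and the ROR element TAGGTCA. Of the 10 called clock genes of largest change that had a promoter, these 6 held a match, in capitals, in at least 1 listed start, and Npas2, Dbp, Usp2 and Tsku held none in these windows. The first 3 below rose and hold E-boxes, Per3 rose and holds 2 D-boxes, and the last 2 fell and hold a ROR element.
Ciart, chr3:95882179-95882478, minus strand: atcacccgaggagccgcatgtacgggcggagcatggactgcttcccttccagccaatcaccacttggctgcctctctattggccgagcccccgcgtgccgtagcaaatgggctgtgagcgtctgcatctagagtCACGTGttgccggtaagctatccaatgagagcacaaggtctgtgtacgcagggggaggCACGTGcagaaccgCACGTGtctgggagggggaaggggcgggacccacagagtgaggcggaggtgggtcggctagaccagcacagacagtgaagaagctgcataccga
Per1, chr11:69098699-69098998, plus strand: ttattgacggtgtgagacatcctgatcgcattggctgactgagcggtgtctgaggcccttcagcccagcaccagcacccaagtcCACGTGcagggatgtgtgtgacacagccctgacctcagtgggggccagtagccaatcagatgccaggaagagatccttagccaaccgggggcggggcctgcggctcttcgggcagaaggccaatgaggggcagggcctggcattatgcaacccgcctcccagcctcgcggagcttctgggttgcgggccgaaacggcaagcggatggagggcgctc
Tef, chr15:81802423-81802722, plus strand: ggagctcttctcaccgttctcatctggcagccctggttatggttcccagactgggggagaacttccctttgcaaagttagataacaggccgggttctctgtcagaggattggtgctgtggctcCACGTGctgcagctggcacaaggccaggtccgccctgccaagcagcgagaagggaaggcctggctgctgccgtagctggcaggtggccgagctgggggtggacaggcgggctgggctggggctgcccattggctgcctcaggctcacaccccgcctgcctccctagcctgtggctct
Per3, chr4:151044616-151044915, minus strand: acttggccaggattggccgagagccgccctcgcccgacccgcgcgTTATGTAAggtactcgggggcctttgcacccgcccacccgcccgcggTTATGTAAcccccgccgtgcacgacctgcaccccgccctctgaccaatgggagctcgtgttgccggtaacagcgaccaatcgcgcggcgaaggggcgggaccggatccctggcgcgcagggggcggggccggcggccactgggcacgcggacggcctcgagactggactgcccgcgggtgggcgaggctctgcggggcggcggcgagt
Arntl, chr7:113207261-113207560, plus strand: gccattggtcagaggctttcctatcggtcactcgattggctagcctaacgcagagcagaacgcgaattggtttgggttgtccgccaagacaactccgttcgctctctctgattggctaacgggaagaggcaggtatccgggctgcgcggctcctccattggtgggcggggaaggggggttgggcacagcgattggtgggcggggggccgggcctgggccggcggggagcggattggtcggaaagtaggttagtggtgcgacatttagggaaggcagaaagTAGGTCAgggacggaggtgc
Nfil3, chr13:52980990-52981289, minus strand: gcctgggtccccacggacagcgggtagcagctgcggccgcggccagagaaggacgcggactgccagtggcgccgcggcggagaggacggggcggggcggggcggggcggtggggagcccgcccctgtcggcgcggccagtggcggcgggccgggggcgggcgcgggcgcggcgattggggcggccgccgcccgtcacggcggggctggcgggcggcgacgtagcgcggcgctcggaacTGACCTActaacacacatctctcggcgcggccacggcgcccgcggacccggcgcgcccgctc

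Over all 15877 promoters the E-box letters stood in 9.46%, the D-box in 0.989% and the ROR element in 2.58%. Among the 44 genes with a promoter that rose at least 2-fold the shares were 22.7%, 9.09% and 0%, that is 10, 4 and 0 genes. Among the 54 that fell at least 2-fold they were 11.1%, 0% and 7.41%, that is 6, 0 and 4 genes. The 10 rising genes with an E-box included Pfkfb3 and Bhlhe41 beside Ciart, Per1 and Tef, and Slc16a12, a creatine transporter gene, held both an E-box and a D-box. The 4 falling genes with a ROR element included Dhrs9 beside Arntl and Nfil3. Over all called genes the E-box share was 15% among those that rose and 11.4% among those that fell. These are matches of letters in a short window, and binding was not measured.

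Several nuclear receptors and metabolic regulators differed between the times. Of 22 receptors and cofactors 5 rose and 3 fell, 22.7% and 13.6%. Ppard, a receptor for fatty acids, measured 662, 739, 759.5 and 496 at ZT0 and 231, 271, 229 and 259 at ZT12, lower in each ZT12 array (-1.35 ± 0.15, adjusted p = 1.8e-06). The xenobiotic receptors Nr1i2 (PXR) and Nr1i3 (CAR) rose by 0.78 ± 0.13 and 0.74 ± 0.19. The Nr1i3 arrays overlapped, because ZT0 replicate 1 stood at 1167 units within the ZT12 range of 1089 to 1473, and the call was lost without ZT0 replicate 4 or 5 or ZT12 replicate 8 or 11. Their shared partner Rxra rose by 0.50 ± 0.10, the coactivator Ppargc1b by 0.70 ± 0.08 and Esrra, an activator of mitochondrial genes, by 0.34 ± 0.08. Without ZT0 replicates 5 and 6, 3 receptor genes rose.

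Among factors that answer feeding and fasting, Srebf1, which drives lipid synthesis, rose by 0.84 ± 0.22 (adjusted p = 0.018) and Foxo1, which drives glucose production, by 0.58 ± 0.12. Insig2, which holds SREBP proteins in the endoplasmic reticulum, measured 2235, 3616, 2965 and 2911 at ZT0 and 608, 576, 515 and 729 at ZT12, the groups being 4.70-fold apart. Stat5b, which relays growth hormone signals, changed by -0.60 ± 0.08. Of 23 such factors 3 rose and 3 fell, and 1 rose without ZT12 replicate 8 or 11 or without ZT0 replicates 5 and 6, where Srebf1 and Tfeb were no longer called. Bcl6, a repressor, measured 996, 924, 929 and 399 at ZT0 and 127, 157, 165 and 215 at ZT12, with ZT0 replicate 6 below the other ZT0 arrays, and its call (log2 change -2.13 ± 0.61, adjusted p = 0.028) was lost without any 1 of ZT0 replicates 1, 4 and 5 or ZT12 replicates 7, 8 and 11.

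Of the 15 genes of haem and electron supply 5 rose and 0 fell. Alas1, the first enzyme of haem synthesis, measured 784, 1138, 1058 and 1839.8 at ZT0 and 7716, 7652, 6189.8 and 6643 at ZT12, and Por, the reductase that serves the microsomal cytochromes P450, measured 775, 578, 612 and 730.0 at ZT0 and 3232, 3261, 3500.5 and 3732 at ZT12. In both genes every ZT12 array was far above every ZT0 array (2.59 ± 0.27 and 2.33 ± 0.16). Alad, the next enzyme after Alas1, rose by 0.45 ± 0.09. Clpx, the ATPase of the mitochondrial ClpXP protease, is outside that list and went the other way. It measured 1704, 1903, 1795 and 1756 at ZT0 and 404, 462, 408 and 498 at ZT12, a log2 change of -1.98 ± 0.09 (adjusted p = 6.9e-14). The calls of Fech and Cyb5a (0.21 ± 0.06 and 0.23 ± 0.07), the last enzyme of haem synthesis and an electron carrier, were lost, the first without any 1 array and the second without ZT0 replicate 4, 5 or 6 or ZT12 replicate 7, 8 or 11, which left 3 genes; without ZT0 replicates 5 and 6 together 2 were left.

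Of 30 P450 genes 4 rose and 1 fell, shares of 13.3% and 3.33%. The shares of all genes, not matched for brightness, were 4.24% and 4.85%. Cyp2a4 and Cyp2a5 rose 3.68-fold and 3.33-fold, to 2703 to 3828 and 2950.2 to 3888 units at ZT12; the 2 genes are near-identical, so their probes may share signal. Cyp2d22 rose by 0.31 ± 0.07 and Cyp2e1 by 0.22 ± 0.06, and Cyp2j5 fell (-0.24 ± 0.06), which left 0 lower without ZT0 replicates 5 and 6. The Cyp2e1 call was lost without ZT0 replicate 4 or 5 or ZT12 replicate 7, 8 or 13. Of 31 conjugation genes 2 rose, Gstt2, a glutathione transferase (1.03 ± 0.23), and Papss2, which makes the sulfate donor (0.85 ± 0.20), and 1 fell, 6.45% and 3.23%. Without ZT0 replicates 5 and 6, 1 conjugation gene rose. Gclc, which limits glutathione synthesis, measured 3164, 2962, 2784 and 2696 at ZT0 and 1563, 1398, 1364 and 1486 at ZT12, 1.99-fold lower with no overlap (adjusted p = 1.7e-05), and Gsr, which regenerates glutathione, changed by -0.34 ± 0.08, the 2 calls among 15 antioxidant genes.

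Of 22 genes of fatty acid and triglyceride synthesis 4 rose and 2 fell, 18.2% and 9.09%, with a median log2 change of -0.09. Lpin1, a phosphatidate phosphatase, measured 799, 767, 1016 and 1179.8 at ZT0 and 2797, 2767, 3003 and 3714 at ZT12, 3.25-fold higher at ZT12. Thrsp, a lipogenic regulator, rose by 0.94 ± 0.21, the desaturase Fads2 by 0.54 ± 0.11 and Dgat2, which makes triglyceride, by 0.40 ± 0.08. The elongases fell: Elovl3 measured 5998, 6455, 5012 and 6714 at ZT0 and 1072, 806, 799 and 1365 at ZT12 and Elovl5 changed by -0.54 ± 0.10. Of 28 genes of fatty acid oxidation 3 rose and 1 fell, 10.7% and 3.57%, with a median of 0.24. The shares of all genes, not matched for brightness, were 4.24% and 4.85%. Of the 28 genes 1 rose without any 1 of ZT0 replicates 4, 5 and 6 or ZT12 replicates 8 and 13, or without ZT0 replicates 5 and 6. Cpt1a, which admits fatty acids to mitochondria, rose by 0.68 ± 0.11, and Pdk4, which blocks pyruvate oxidation, measured 384, 663, 648 and 375 at ZT0 and 73.5, 63.2, 51.8 and 60.7 at ZT12 and fell 6.62-fold.

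The thioesterase gene Acot3 measured 59.8, 16.3, 6.74 and 4.68 at ZT0 and 106, 300.4, 68.1 and 123 at ZT12. It was dim and scattered in both groups, and its call (2.15 ± 0.63) and that of Acot4 (0.96 ± 0.29) were lost without ZT0 replicate 4, 5 or 6 or ZT12 replicate 8 or 13, leaving 1 gene higher, and Acot4 also without ZT12 replicate 7. Slc16a1, the exporter of ketone bodies and lactate, changed by -0.84 ± 0.12. On lipid droplets Pnpla2, the main triglyceride lipase, rose by 0.83 ± 0.11 and Plin2, a droplet coat protein, ranged over 2452 to 2743 units at ZT0 and 1564 to 1839.8 at ZT12.

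Phosphatidylcholine genes held opposite changes. Chka, the choline kinase, measured 709, 795, 540.1 and 635 at ZT0 and 100.2, 89.3, 103 and 94.8 at ZT12, 6.03-fold lower at ZT12 (adjusted p = 3.1e-11). Gpcpd1, which frees glycerophosphate and choline from a breakdown product of phosphatidylcholine, measured 178, 286, 323 and 448 at ZT0 and 1575, 1262, 1363 and 1056 at ZT12, 4.25-fold higher (adjusted p = 1.4e-06). Etnk2, an ethanolamine kinase, rose by 0.95 ± 0.15. Mfsd2a, the carrier of lysophosphatidylcholine, is outside the list counted next and rose by 1.90 ± 0.47. Its ZT0 values ran from 129.5 to 859 units, and its call was lost without ZT0 replicate 4, the lowest. Of 14 phospholipid genes 2 rose and 4 fell, 14.3% and 28.6%. The lower count was 2 without ZT12 replicate 11, where Cept1 and Etnk1 were no longer called, and 1 without ZT0 replicates 5 and 6.

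Bile acid genes changed in both directions. Cyp7a1, whose enzyme sets the pace of bile acid production, measured 701, 474, 774 and 593 at ZT0 and 3277, 3178, 1861 and 2099 at ZT12. Every ZT12 array was above every ZT0 array, 3.96-fold in the means (adjusted p = 0.0011). Hsd3b7, a later enzyme of the same route, changed by -0.58 ± 0.09. Abcb11, the bile salt export pump, measured 3202, 3835, 3241 and 3407 at ZT0 and 1971, 1765, 1640.4 and 1704 at ZT12, a log2 change of -0.94 ± 0.07 with tight groups (adjusted p = 1.1e-09). Slc10a1, which takes bile acids up from blood, rose by 0.29 ± 0.09, a call lost without ZT0 replicate 1 or 4 or ZT12 replicate 7, 8 or 11. Of 19 bile acid genes 3 rose and 3 fell, 15.8% each. Of these 1 rose without ZT0 replicate 4 or ZT12 replicate 7, 8 or 11, or without ZT0 replicates 5 and 6.

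The sterol exporters Abcg5 and Abcg8, which work as a pair, rose by 0.87 ± 0.10 and 0.78 ± 0.10, and 0 of 15 genes of sterol uptake and export fell. Of 21 cholesterol synthesis genes 0 rose and 2 fell, 0% and 9.52%, with a median of -0.22. The lower count was 0 without any 1 of ZT0 replicates 4, 5 and 6 or ZT12 replicates 8 and 11 or without ZT0 replicates 5 and 6, 1 without ZT12 replicate 7 and 5 without ZT12 replicate 13. Hmgcs1, an early enzyme of the route, measured 1945, 2918, 3384 and 2694 at ZT0 and 1462, 1154, 1158 and 2306 at ZT12. Its arrays overlapped through ZT12 replicate 13, and its call (-0.87 ± 0.24, adjusted p = 0.024) was lost without ZT0 replicate 4, 5 or 6 or ZT12 replicate 8 or 11.

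**Figure D3:**
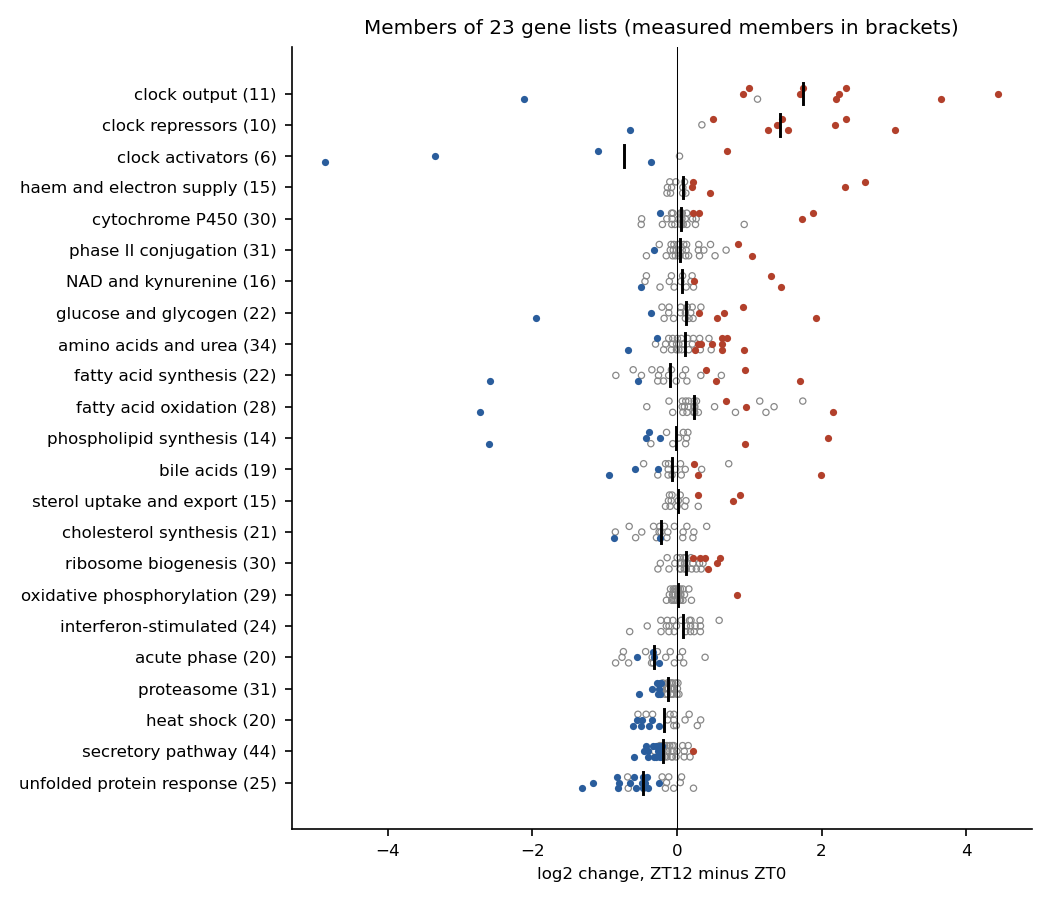
Members of 23 gene lists are drawn by their log2 change from ZT0 to ZT12, each point a gene; filled points passed the threshold, red higher and blue lower at ZT12, open points did not, and the black bar is the median of the list. Clock outputs span from -2.12 for Nfil3 to 4.45 for Dbp, and the unfolded protein response has the lowest median of the lists outside the clock, -0.46.

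In glucose metabolism 5 of 22 genes rose and 2 fell, 22.7% and 9.09%. Slc2a2, the glucose transporter of hepatocytes, measured 3549, 3553, 4028 and 3658 at ZT0 and 5476, 5593, 5418 and 5201 at ZT12, 0.55 ± 0.10 on the log2 scale (adjusted p = 0.00096). Slc37a4, which carries glucose 6-phosphate into the endoplasmic reticulum, rose by 0.65 ± 0.13, and Fbp1, an enzyme of glucose production, by 0.31 ± 0.07. Pfkfb3, which makes an activator of glycolysis, rose by 1.93 ± 0.33, from 58.1 to 207 units to 279 to 572. Ppp1r3c, which targets a phosphatase to glycogen, measured 889, 949, 798 and 868 at ZT0 and 283, 207, 258 and 136 at ZT12 and was 3.88-fold lower at ZT12. Gckr, the inhibitor of glucokinase, changed by -0.36 ± 0.07.

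Of 20 genes of insulin and growth hormone signalling 2 rose and 4 fell, 10% and 20%. There 4 genes rose without ZT0 replicate 1 and 1 without ZT0 replicates 5 and 6, and 2 fell without ZT0 replicate 6 or that pair. Irs1 and Irs2, the substrates that pass on the insulin signal, changed by -0.67 ± 0.13 and -1.07 ± 0.26; the Irs2 call was lost without ZT0 replicate 6. Igfbp1, a binding protein repressed by insulin, measured 1251, 2325, 2615 and 2558 at ZT0 and 218, 286, 324 and 527 at ZT12, 6.27-fold lower at ZT12, with ZT0 replicate 1 below the other ZT0 arrays. Igfbp4 rose by 0.63 ± 0.09. The highest change in the list, 2.11, belonged to a gene not named here. Nrg4, a secreted ligand of the ErbB4 receptor, is outside that list. It measured 41.2, 74.8, 81.7 and 62.9 at ZT0 and 461, 484, 466 and 334 at ZT12, 5.63-fold higher. Erbb3, a receptor of the ErbB4 family, was at -0.59 ± 0.17, called with all arrays and not without ZT0 replicate 1, 4 or 6 or ZT12 replicate 7 or 8.

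Hamp, the iron hormone hepcidin, measured 7297, 2676, 6574 and 3905 at ZT0 and 8944, 8909.7, 7993 and 8263 at ZT12. All ZT12 arrays were above all ZT0 arrays, which were spread widely (0.85 ± 0.21, adjusted p = 0.011), and the call was lost without ZT0 replicate 4. Hjv, a coreceptor that stimulates hepcidin, changed by -0.58 ± 0.12. Fst, the activin-binding protein follistatin, changed by -0.98 ± 0.16, and Fgf1, a growth factor, rose by 0.56 ± 0.12.

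Of 34 amino acid and urea cycle genes 9 rose and 2 fell, 26.5% and 5.88%, and 1 fell without ZT0 replicate 4 or 5 or ZT12 replicate 7 or 8, or without ZT0 replicates 5 and 6. The alanine transaminases Gpt and Gpt2 rose by 0.49 ± 0.10 and 0.70 ± 0.08, and Asl, an enzyme of the urea cycle, by 0.62 ± 0.09. Mat1a, which makes S-adenosylmethionine, rose by 0.29 ± 0.07. Cbs, the first enzyme of transsulfuration, measured 2918, 2595, 2739 and 2856 at ZT0 and 1781, 1587, 1696 and 1864 at ZT12 and fell by 0.68 ± 0.08 on the log2 scale. Gldc, the glycine cleavage enzyme, which is outside that list and named for its low p, measured 1125, 1118, 1181 and 1081 at ZT0 and 497, 498, 600.0 and 498 at ZT12, a log2 change of -1.09 ± 0.09 (adjusted p = 9.9e-09). In NAD synthesis the salvage enzyme Nampt measured 298, 282, 291 and 273 at ZT0 and 779, 711, 717 and 715 at ZT12, 2.47-fold higher with no overlap (adjusted p = 5.6e-09), and Nmrk1, the nicotinamide riboside kinase, rose by 1.44 ± 0.18. Kynu, of the tryptophan route, changed by -0.50 ± 0.09.

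Chaperones of the endoplasmic reticulum that passed the test were lower at ZT12. Of 25 genes of the unfolded protein response 0 rose and 15 fell, 60% beside 4.85% of all genes, with a median log2 change of -0.46. Hspa5, the master chaperone BiP, measured 5227, 5956, 5974 and 5788 at ZT0 and 3689, 4046, 3593 and 4235 at ZT12. Sdf2l1, a cofactor of BiP, measured 519, 585, 581 and 438 at ZT0 and 214, 208, 199.6 and 188 at ZT12, and Creld2, a secreted chaperone, 962, 869.8, 934 and 737 at ZT0 and 331, 398, 362 and 448 at ZT12. In these 3 genes all ZT0 arrays were above all ZT12 arrays, with changes of -0.56 ± 0.10, -1.32 ± 0.24 and -1.16 ± 0.24.

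The disulfide isomerases Pdia3, Pdia4 and Pdia6 changed by -0.44 ± 0.10, -0.83 ± 0.10 and -0.65 ± 0.11, Manf and Hyou1, which assist BiP, by -0.80 ± 0.15 and -0.81 ± 0.15, and Calr and Canx, lectin chaperones of glycoproteins, by -0.47 ± 0.07 and -0.25 ± 0.07. Of the 10 genes not called, Xbp1, a transcription factor of the response, was at 0.05 ± 0.18 and Herpud1, which serves protein degradation, at 0.23 ± 0.16. The Canx call was lost without ZT0 replicate 4. With any 1 array left out between 14 and 15 members were called lower, and 13 without ZT0 replicates 5 and 6.

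**Figure D4:**
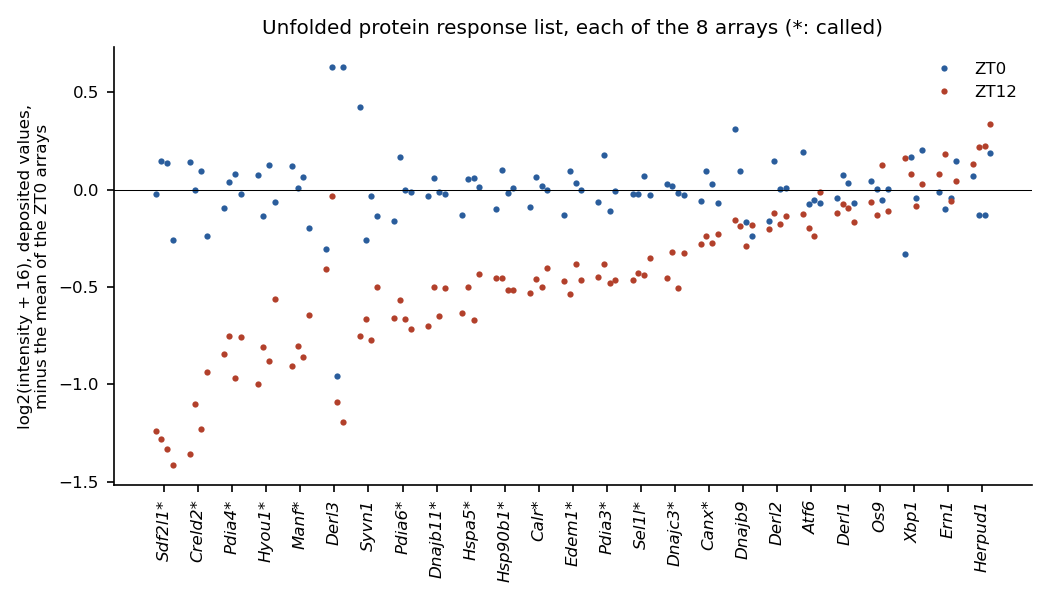
Each gene of the unfolded protein response list is shown with its 4 ZT0 and 4 ZT12 arrays as log2(intensity + 16) minus the mean of the ZT0 arrays. The values drawn are the normalised ones, although the axis label names deposited values. An asterisk marks the 15 called genes. In each of the called genes the ZT12 points lie below all ZT0 points, with changes from -1.32 for Sdf2l1 to -0.25 for Canx.

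The ER stress element, CCAAT and CCACG with 9 bases between them, was searched in the same promoters and stood in 25 of 15877 genes (0.157%). Of the 783 genes with a promoter that fell 10 held it, and of the 686 that rose 0. Of the 21 list members with a promoter 9 did, namely Hspa5, Hsp90b1, Pdia6, Calr, Canx, Dnajc3, Creld2, Syvn1 and Derl3, of which the first 7 fell (Syvn1 and Derl3, not called, are named for this match). The promoter of Hsp90b1, the chaperone GRP94, is printed because it alone of these held 2 matches, and that of Creld2 because it fell the most of them; the capitals mark the elements.
Hsp90b1, chr10:86705395-86705694, minus strand: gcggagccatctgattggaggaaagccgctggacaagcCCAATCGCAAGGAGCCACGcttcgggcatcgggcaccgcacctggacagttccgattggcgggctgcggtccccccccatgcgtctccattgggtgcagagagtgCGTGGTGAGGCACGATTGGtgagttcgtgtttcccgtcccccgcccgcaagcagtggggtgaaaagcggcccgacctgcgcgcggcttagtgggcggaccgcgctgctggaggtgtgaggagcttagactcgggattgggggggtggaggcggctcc
Creld2, chr15:88819396-88819695, plus strand: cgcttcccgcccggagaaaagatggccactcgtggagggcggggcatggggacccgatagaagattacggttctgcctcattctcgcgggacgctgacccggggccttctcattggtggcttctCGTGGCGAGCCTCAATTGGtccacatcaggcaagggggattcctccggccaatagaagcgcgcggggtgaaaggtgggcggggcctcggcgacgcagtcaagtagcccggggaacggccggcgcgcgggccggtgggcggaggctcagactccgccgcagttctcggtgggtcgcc

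Beyond the chaperones, of 44 genes of the secretory route 15 fell and 1 rose, 34.1% and 2.27%, with a median of -0.19. Spcs2 and Spcs3, of the signal peptidase, changed by -0.59 ± 0.10 and -0.46 ± 0.07, Rpn1 and Stt3b, of the enzyme that adds sugar chains, by -0.43 ± 0.08 and -0.39 ± 0.06, and the translocon factors Sec63 and Sec61g by -0.32 ± 0.07 and -0.33 ± 0.08. Without ZT12 replicate 8, 9 members fell, and 6 without ZT0 replicates 5 and 6. No member rose without ZT0 replicate 4, 5 or 6 or ZT12 replicate 7, 8 or 11. The fibrinogen chains Fga, Fgb and Fgg, major secreted products that also form the clot, changed by -0.55 ± 0.12, -0.25 ± 0.06 and -0.32 ± 0.06. Of 20 acute phase genes 0 rose and 4 fell (1 without ZT0 replicates 5 and 6). The list of 14 coagulation genes leaves the fibrinogen chains out. Of these 14, 0 passed either way in limma (0 at unadjusted p under 0.05), and 1 was lower without ZT0 replicate 1.

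Of 20 heat shock genes 7 fell and 0 rose, among them Hsp90aa1, which measured 1904, 2608, 2436 and 2559.8 at ZT0 and 1347, 1736, 1445 and 1670.1 at ZT12, and its co-chaperones Stip1 (-0.49 ± 0.10), Fkbp4 (-0.35 ± 0.08) and Ahsa1 (-0.39 ± 0.09). Without ZT0 replicates 5 and 6, 3 fell. The cold-induced RNA-binding protein gene Rbm3 went up, with 745, 602, 871 and 738 at ZT0 and 1351, 1321, 1519.7 and 1269.6 at ZT12 (0.88 ± 0.17, adjusted p = 0.0014). Of 31 proteasome genes 8 fell and 0 rose, 25.8% and 0%, led by Psmd11 (-0.52 ± 0.07) and Psma1 (-0.34 ± 0.07). The lower count was 5 without ZT0 replicate 5 or ZT12 replicate 11, and 2 without ZT0 replicates 5 and 6.

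In ribosome biogenesis 6 of 30 genes rose and 0 fell, 20% beside 4.24% of all genes. Ncl, the nucleolar protein nucleolin, rose by 0.32 ± 0.06, Polr1a, the large subunit of RNA polymerase I, by 0.43 ± 0.08, and the nucleolar factors Nop2 and Nop56 by 0.55 ± 0.13 and 0.60 ± 0.15. The count was 3 without ZT12 replicate 8, and 2 without ZT0 replicates 5 and 6, and 1 gene fell without ZT0 replicate 1 or ZT12 replicate 7 or 13. Nop56 measured 537, 581, 584 and 547 at ZT0 and 981, 1096, 766 and 657 at ZT12, with ZT12 replicates 7 and 8 above replicates 11 and 13, and its call was lost without ZT12 replicate 8. Of 34 ribosomal protein genes 1 rose and 2 fell, but 0 rose without any 1 array other than ZT0 replicate 1 or without ZT0 replicates 5 and 6, and 1 fell without ZT0 replicate 4 or 5 or ZT12 replicate 7, 8 or 11. Of 29 genes of oxidative phosphorylation 1 rose, Sdhc, a subunit of complex II (0.83 ± 0.15, adjusted p = 0.00062), and 0 fell.

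Smaller sets held single large changes. Cdkn1a, the cell cycle inhibitor p21, measured 183, 188, 410.2 and 475 at ZT0 and 54.1, 58.0, 48.1 and 61.1 at ZT12; ZT0 replicates 5 and 6 were above replicates 1 and 4, and all were above ZT12 (-2.09 ± 0.37, adjusted p = 0.00055). Ccnd1 and Ccne1, cyclins of the entry into the cell cycle, rose by 0.69 ± 0.16 and 0.41 ± 0.07, and Rrm2, which supplies deoxynucleotides, by 1.01 ± 0.19. Slc30a10, a manganese exporter, measured 621, 621, 633 and 568 at ZT0 and 253, 267, 274 and 197 at ZT12 and fell by 1.26 ± 0.12 on the log2 scale, while Slc39a8, an importer of manganese and zinc, changed by -0.41 ± 0.07. In autophagy Ulk1, the initiating kinase, rose by 0.61 ± 0.11 and Bnip3, a receptor for mitochondria, by 0.82 ± 0.11. Of 24 interferon-stimulated genes 0 rose and 0 fell in limma, and 3 had an unadjusted p under 0.05. In that list 1 gene was higher without ZT12 replicate 11 or 13 and 1 lower without ZT12 replicate 7.

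Other genes of the extremes carried no list. Upp2, which degrades uridine, measured 491, 695, 628 and 773 at ZT0 and 3569, 3183, 3396 and 3530.4 at ZT12, 5.25-fold higher. Slc16a12, the creatine transporter, measured 525, 499.7, 511 and 458 at ZT0 and 1102, 1174, 1063 and 1123 at ZT12, a smaller rise of 1.14 ± 0.07 between very tight groups (adjusted p = 8.9e-11). Rgs16, which dampens G protein signals, rose by 1.56 ± 0.41, and Nrep and Arhgef26 by 1.91 ± 0.35 and 1.54 ± 0.23. The Rgs16 call was lost without ZT0 replicate 5 or ZT12 replicate 8.

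On the falling side the tubulins Tubb2a and Tubb2b measured 1099.8 to 1566 and 352 to 507 units at ZT0 and 186 to 224 and 85.7 to 103 at ZT12, 5.90-fold and 4.01-fold lower; they are close paralogs whose probes may share signal. Rnf125, a ubiquitin ligase, measured 2908, 3536, 3167 and 2608 at ZT0 and 712, 559, 935 and 789.8 at ZT12. Avpr1a, the vasopressin receptor of liver, changed by -1.78 ± 0.13, the water channel Aqp8 by -2.02 ± 0.24, the tight junction protein Cldn1 by -1.67 ± 0.13 and Coq8a, of coenzyme Q synthesis, by -1.65 ± 0.13. Dhrs9, a retinol dehydrogenase, changed by -2.25 ± 0.14, Spon2, a secreted matrix protein, by -2.18 ± 0.17, and Efna1, a membrane ligand, by -1.49 ± 0.24. The kinase gene Grk5 changed by -1.49 ± 0.20 and Depp1, a regulator of autophagy, by -2.04 ± 0.35, from 1006 to 2082 units to 246 to 457.

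Fewer cells of a type and less RNA per cell cannot be told apart in whole tissue. Of 12 markers of sinusoidal endothelium 4 fell and 0 rose, 33.3% and 0% beside the 4.85% and 4.24% of all genes. Those that fell included Pecam1 (-0.43 ± 0.09) and Clec4g (-0.49 ± 0.10). The markers summed to between 5619 and 6331 units at ZT0 and between 4356 and 5540.5 at ZT12. The count was 2 without ZT12 replicate 11 or without ZT0 replicates 5 and 6. Of 13 Kupffer cell markers 0 passed in limma, 4 had an unadjusted p under 0.05, and 3 were lower without ZT0 replicate 1. Their sum was 7682 and 8249 units in ZT0 replicates 4 and 5, 4552 and 4536 in replicates 1 and 6, and 4082 to 6028 at ZT12. Cholangiocyte markers summed to 1552, 1942, 2186.5 and 2395 units at ZT0, highest in replicates 5 and 6, and to between 1397 and 1664 at ZT12. Of 8 markers 1 was called, lower at ZT12, a call lost without ZT12 replicate 8 or without ZT0 replicates 5 and 6. In that list 2 were lower without ZT0 replicate 4 or ZT12 replicate 13. Sums of stellate, erythroid, T and NK, B, neutrophil, pancreas and adipocyte markers overlapped between the times. Pericentral hepatocyte markers summed to between 30444 and 34342 units at ZT0 and 35232 and 35976 at ZT12, with 3 of 13 higher and 1 lower, 23.1% and 7.69%. Of these 0 were higher without ZT0 replicate 4 and 1 without ZT0 replicate 5 or ZT12 replicate 7 or 13, and the lower call was lost without any 1 array but ZT12 replicate 13 or without ZT0 replicates 5 and 6. Periportal markers summed to between 36563 and 39330 units at ZT0 and between 37576 and 42285 at ZT12, ranges that overlapped. Of 12 periportal markers 2 were higher and 0 lower, 16.7% and 0%. The higher count was 0 without ZT0 replicate 1, 4 or 6, ZT12 replicate 11 or ZT0 replicates 5 and 6 together. It was 1 without ZT12 replicate 7, 8 or 13. The part of these marker shifts in the results above was not tested.

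No gene passed a test of a different change with time in recipients of other donors. In limma 0 of 20702 genes (0%) had a different change in HF recipients and 0 (0%) in KD recipients. At unadjusted p under 0.05 there were 598 (2.89%) and 845 (4.08%), where 5% is expected with no difference. The median SE of a difference of changes was 0.126 log2 units, so small differences in single genes could not be seen with 4 arrays a group. The 121 large changes were chosen by their change in NC arrays, with the spread and the normalisation shared over the 24 liver arrays. All 121 had the same sign in HF and in KD recipients, whose arrays are separate. Of these genes 110 were called with HF donors, 102 with KD donors and 98 with both. Their median size was 1.38 in NC recipients and 1.21 and 1.18 in HF and KD recipients, and choosing by size in NC arrays favours the first value.

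Bcl6 and Depp1 were singled out after their values were seen. Bcl6 was at -2.13 ± 0.61 with NC donors, -0.36 ± 0.61 with HF and -0.30 ± 0.61 with KD donors, with unadjusted p = 0.052 and 0.044 for the differences. Depp1 was at -2.04 ± 0.35, -0.60 ± 0.35 and -1.02 ± 0.35 (unadjusted p = 0.0076 and 0.049). Neither passed after adjustment over all genes. The unfolded protein response list had 15, 14 and 16 members lower in NC, HF and KD recipients, and the clock outputs 9 higher in each. The secretory route had 15, 16 and 15 lower, heat shock 7, 9 and 11, and ribosome biogenesis 6, 3 and 1 higher. These counts were not tested against each other.

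**Figure D5:**
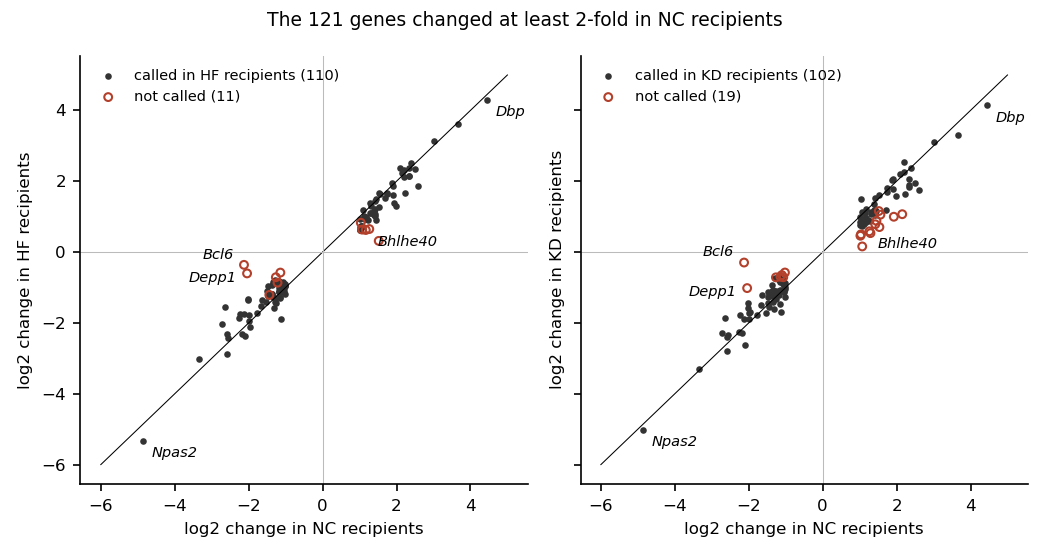
The 121 genes changed at least 2-fold in NC recipients are plotted by their log2 change in NC recipients (horizontal) and in HF (left) or KD recipients (right), and the line marks equal change. All points lie in the quadrants of equal sign; open points, 11 and 19, did not pass the threshold in the other group.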

How the data were processed

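Liver RNA was hybridised to 1-colour arrays. The authors deposited linear intensity values per transcript cluster, made with PLIER per the submitters' processing notes; the sources used here give no version. Of 35556 clusters 23811 matched a symbol, and the brightest cluster stood for each of 20702 genes. Values were taken as log2(intensity + 16), which understates changes of dim genes, and quantile normalised over the 24 liver arrays. limma 3.58.1 in R 4.3.3 was fitted on 6 groups of 4 arrays (18 residual degrees of freedom), without an intensity trend, and p-values were adjusted by the Benjamini-Hochberg method over all genes, with a threshold of 0.05. Intensities of genes and sums of lists in the text are normalised values turned back to the linear scale, and only the array medians are as deposited. Changes and ± values are log2 differences and their standard errors, which use the spread pooled over the 6 groups. Precision is limited by the number of arrays. Members and gene lists were chosen with earlier results of these data known. The text names genes among the 25 largest changes in each direction (predicted genes, small RNAs and receptor families passed over), clock genes, called list members, the brightest uncalled list members and genes of lowest p. Results of some genes are not reported here.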

Additional observations from a re-analysis of the deposited data

Results flagged for a closer look

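In 19 of 358 groups of 4 arrays, 1 group for each named gene and time, the highest or lowest array stood away from the nearest other by more than the 95% critical value of Dixon's test allows, where chance gives about 1 in 20. ZT0 replicate 1 lay apart above the other 3 arrays of its time in Fgf21 (849 units), Alad (1020.5 units) and Cyp2a5 (1214 units). ZT0 replicate 1 lay apart below the other 3 arrays of its time in Fech (781 units), Slc10a1 (5810.0 units) and Igfbp1 (1251 units). ZT0 replicate 5 lay apart above the other 3 arrays of its time in Fst (312 units). ZT0 replicate 6 lay apart below the other 3 arrays of its time in Srebf1 (693 units) and Bcl6 (399 units). ZT12 replicate 11 lay apart above the other 3 arrays of its time in Gldc (600.0 units) and Spcs3 (671 units). ZT12 replicate 13 lay apart above the other 3 arrays of its time in Cyp2j5 (4050.0 units), Gsk3b (579.9 units), Fech (994 units), Fads2 (7542 units) and Etnk1 (407 units). ZT12 replicate 13 lay apart below the other 3 arrays of its time in Nrg4 (334 units). ZT12 replicate 7 lay apart above the other 3 arrays of its time in Nampt (779 units). ZT12 replicate 8 lay apart above the other 3 arrays of its time in Abcg5 (1507 units). No explanation for these was tested.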

How the results depend on the processing

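The number of genes called moved more with the processing than the large changes did. Array weights gave 3178 genes (1404 higher, 1774 lower), and median centring gave 527 higher genes. Leaving out ZT0 replicates 5 and 6 together, chosen after seeing the data, gave 1051 (551 higher, 500 lower). With 1 array left out the ranges were 1255 to 2116 genes, 574 to 859 higher and 668 to 1257 lower. Genes of at least 2-fold numbered 112 to 141 and clock genes 21 to 25 over all these settings, and no gene with a different change in HF or KD recipients was called in any of them. No called gene named in the text changed direction under any setting run. Median centring also ended the calls of Cyb5a, Cyp2e1, Cyp2j5, Fbp1, Fech, Ncl, Slc10a1 and Tfeb; leaving the quantile step out those of Cyb5a, Cyp2j5 and Fech; an offset of 1 that of Acot4; the trend and robust prior those of Acot3, Acot4 and Bcl6; the fit on the 2 groups alone those of Cyp2e1, Fech, Hamp and Tfeb; and the mean over a gene's clusters those of Clec4g and Stt3b. Calls gained were those of Klf10 and Syvn1 in the fit on the 2 groups alone and of Klf10, Reg3b, Sis and Defa-ps1 with array weights; the last 3 were also called without ZT0 replicate 1, and Sis without ZT0 replicate 4. The cause of these shifts was not tested. No paired analysis was possible because the ZT0 and ZT12 arrays share no replicate number. Dim genes had the lowest share of calls and the widest spread, and the number of arrays limits the precision throughout.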
